A study of Mus musculus with 8 samples.

Results

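Notch signalling and the transcription factors of the secretory lineage were followed in mouse colon and small intestine through 9 genes: the Notch target Hes1, the receptor Notch1, the ligands Dll1 and Dll4, and the lineage factors Atoh1, Spdef, Gfi1, Neurog3 and Neurod1. The members were every probe set that the platform annotation assigns to exactly 1 of these genes, which gave 13 probe sets among the 45101 on the array, where 18193 genes are represented by a probe set of their own. None of the 13 probe sets was assigned to a second gene as well. RNA from C57BL/6 mice aged 110 days had been combined within each genotype and tissue before labelling, so each of the 8 groups was 1 array and no group had replicates. The groups were colon tumours of ACKR2-/-ApcMin/+ mice, colon tumours of ApcMin/+ mice, colon of ACKR2-/- mice, colon of WT mice, small intestinal tumours of ACKR2-/-ApcMin/+ mice, small intestinal tumours of ApcMin/+ mice, small intestine of ACKR2-/- mice and small intestine of WT mice. The small intestinal tumours were labelled as ileal, and the labels do not give the segment of the non-tumour small intestine or the number of mice per pool. ACKR2, also called D6, is an atypical chemokine receptor that takes up inflammatory CC chemokines without signalling to attract cells, and it was absent by genotype in 4 of the groups. ApcMin/+ mice carry a truncating Apc mutation and form intestinal tumours spontaneously. All tumours came from ApcMin/+ backgrounds and all non-tumour tissue came from mice without that allele, so tumour and Apc genotype cannot be told apart in any comparison.

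In Notch signalling a Delta or Jagged ligand on one cell binds a Notch receptor on its neighbour, the receptor is cut by an ADAM protease and by gamma-secretase, and the released intracellular domain joins RBPJ and a Mastermind protein on target genes such as Hes1. HES1 is a repressor, and Atoh1 is among the genes it holds down. In the intestinal crypt, progenitors with active Notch become absorptive enterocytes, while cells that present ligand and switch on Atoh1 become goblet, Paneth or enteroendocrine cells. SPDEF then promotes goblet and Paneth cell maturation, GFI1 keeps secretory progenitors away from the enteroendocrine fate, and NEUROG3 followed by NEUROD1 sets up enteroendocrine cells.

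Values are MAS5 signals, a linear intensity that had been scaled on each array to a trimmed mean of 500. Differences were tested on the log2 scale with limma over 14027 genes, each represented by its probe set with the highest mean, after signals under 64.1 had been set to that floor, and p-values were adjusted by the Benjamini-Hochberg method. The model had 6 coefficients for 8 arrays, and within each tumour status both organs shared 1 ACKR2 effect. The spread behind every p-value is therefore how far the ACKR2 effect differed between colon and small intestine, moderated over all genes. A gene whose ACKR2 effect differed between organs gets a wide standard error in all comparisons. That spread may be technical, and it holds no information on variation between mice. All 9 genes were above the floor in at least 2 arrays and were tested, and 12 of their 13 probe sets reached it in at least 2 arrays. The exception was the probe set 1422312_a_at of Neurog3, whose signal stayed between 1.19 and 31.9. Notch1, Dll4, Neurog3 and Neurod1 each had a second probe set. For Neurod1 and Dll4 it ran the same way in both organs' tumours. For Notch1 it gave other sizes, and in small intestinal tumours the other sign, as described with the gene.

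Several features of the arrays moved with the groups. The median signal was 85.5 to 103 on the 4 ACKR2-deficient arrays and 115 to 133 on the 4 ACKR2-intact arrays, and the ratio of the 3' to the 5' Actb control probe sets was 1.28 to 1.39 against 1.13 to 1.17. The same ratio for Gapdh overlapped, at 0.74 to 0.866 on ACKR2-deficient and 0.772 to 0.952 on ACKR2-intact arrays. The Ackr2 gene did not separate the genotypes: the brightest of its 3 probe sets gave 71.3 to 153 on ACKR2-deficient arrays and 90.7 to 116 on ACKR2-intact arrays, and whether it lies inside the deleted sequence was not determined. The Y-linked transcript Eif2s3y read 888 to 1501 on 6 arrays, against 2.92 and 2.66 on the colon and small intestine arrays of WT mice, and Xist read 77.9 and 127 in the ACKR2-/-ApcMin/+ colon and small intestinal tumours, against 2818 to 9809 elsewhere. All 7 measured small intestinal markers were lower in colon than in small intestine. The WT small intestine array also carried colon transcripts, where Car1 read 62.6 in ACKR2-/- small intestine against 18863.7 in WT small intestine and Aqp8 read 105 against 958, while the WT array's Atp12a stood at 24.2 and its Scnn1g at 3.96. The part that sex, RNA quality and this array play in the results was not tested.

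**Figure D1:**
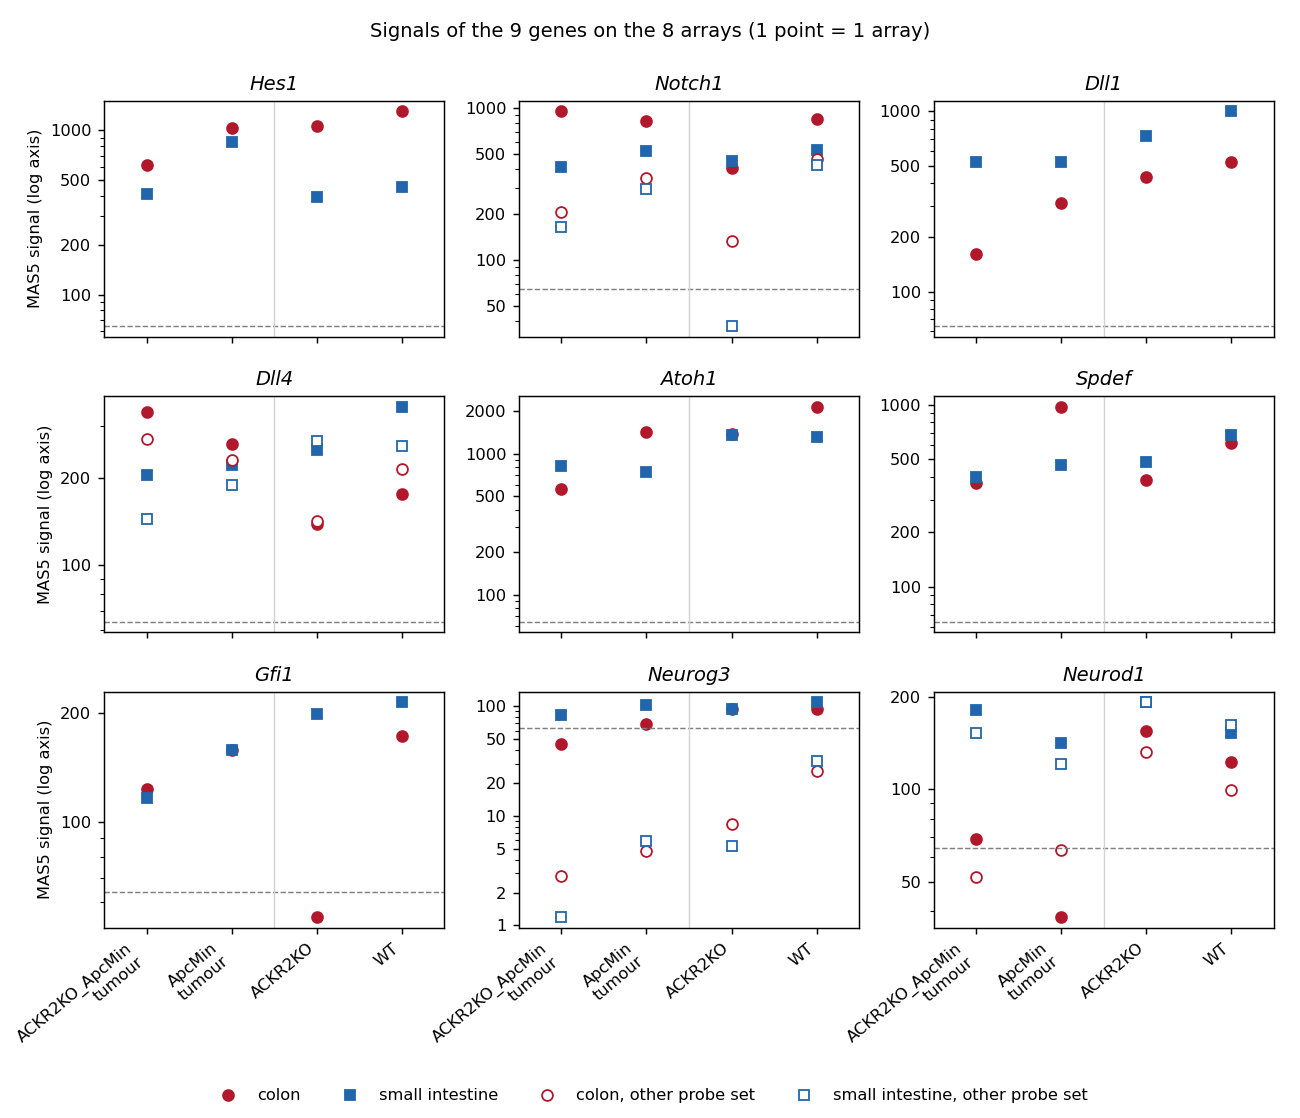
MAS5 signal (vertical axis, log scale) of each gene on the 8 arrays, grouped by genotype along the horizontal axis with tumours left of non-tumour tissue. Red circles are colon, blue squares are small intestine, open symbols are a second probe set, each point is 1 array, and the dashed line is the floor of 64.1. Dll1 and Atoh1 sit lower in tumours than in the matching non-tumour tissue in both organs, and Hes1 sits highest in the colon of WT mice.

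Tumours carried less of the ligand gene Dll1, and the enteroendocrine factor Neurod1 was lower in colon tumours and in the average of both organs. The Dll1 signal was 161 in ACKR2-/-ApcMin/+ and 309 in ApcMin/+ colon tumours, against 434 in ACKR2-/- and 522 in WT colon. In the small intestine it was 521 in ACKR2-/-ApcMin/+ and 525 in ApcMin/+ tumours, against 730.3 in ACKR2-/- and 1000.5 in WT tissue. Tumours were lower than non-tumour tissue in each organ with no overlap. Averaged over the 4 matched pairs of tumour and non-tumour arrays, the log2 difference of Dll1 was -0.90 ± 0.20 (SE), so that it fell 1.87-fold (limma adjusted p = 0.024), and it was lower in 4 of 4 pairs. DLL1 presents the Notch signal from secretory progenitors to their neighbours.

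The Neurod1 signal was 68.9 in ACKR2-/-ApcMin/+ and 38.3 in ApcMin/+ colon tumours, against 155 in ACKR2-/- and 123 in WT colon. In the small intestine it was 182 and 141 in ACKR2-/-ApcMin/+ and ApcMin/+ tumours, against 192 and 152 in ACKR2-/- and WT tissue. The colon groups did not overlap and the small intestinal groups did, with ACKR2-/-ApcMin/+ tumours above WT tissue. The mean difference over 4 pairs was -0.57 ± 0.16 (adjusted p = 0.0427), lower in 4 of 4 pairs, and the colon tumour signal of ApcMin/+ mice was under the floor and entered the fit at 64.1. The small intestinal part of that mean was -0.09 ± 0.22 (adjusted p = 0.864), and the averaged call was lost in 6 of 11 other settings. In the test of every probe set separately, probe set 1426413_at gave -0.61 ± 0.16 (adjusted p = 0.0412) and 1426412_at gave -0.57 ± 0.16 (adjusted p = 0.0507).

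Those 2 genes were the members called over both organs: 2 of 9 were lower and 0 were higher, where 11.9% of all tested genes were called lower and 13.1% higher. The members' median log2 difference was -0.10, against 0.03 over all tested genes. The split of calls over all genes, 1840 higher and 1669 lower, turned to 1483 higher and 2183 lower when arrays were centred on their medians. In bulk tissue, fewer cells of a type and less RNA per cell cannot be told apart. Leaving out any 1 array, which leaves 1 residual degree of freedom, ended every member call in every comparison, and so did leaving out both WT arrays or both ACKR2-/-ApcMin/+ arrays. The Dll1 difference was -0.96 without both WT arrays and -0.84 without both ACKR2-/-ApcMin/+ arrays, and the Neurod1 difference was -0.62 and -0.52.

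Atoh1, the switch for all secretory cell types, was lower in all 4 pairs without passing the threshold. Its signal was 564 in ACKR2-/-ApcMin/+ and 1416 in ApcMin/+ colon tumours, against 1385 in ACKR2-/- and 2148 in WT colon. In the small intestine it was 811 in ACKR2-/-ApcMin/+ and 742 in ApcMin/+ tumours, against 1364 in ACKR2-/- and 1313 in WT tissue. The small intestinal groups were apart, and the colon groups overlapped because the ApcMin/+ tumours stood just above ACKR2-/- colon. The averaged difference was -0.87 ± 0.25 (adjusted p = 0.0528), and that p ran from 0.0222, after centring on medians, to 0.392 over the alternatives.

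Neurog3, the factor that starts enteroendocrine fate, was also lower in all 4 pairs without passing. Its signal was 45.6 and 69.4 in ACKR2-/-ApcMin/+ and ApcMin/+ colon tumours, against 93.9 and 95.8 in ACKR2-/- and WT colon, with the first value under the floor. Among small intestinal arrays the signal was 83.4 and 102 in ACKR2-/-ApcMin/+ and ApcMin/+ tumours, against 93.9 and 109 in ACKR2-/- and WT tissue. The averaged difference was -0.32 ± 0.13 (adjusted p = 0.128), lower in 4 of 4 pairs, and these signals lie close to the floor. Over the 8 arrays, Pearson's r of log2 signals was 0.90 between Dll1 and Neurog3, 0.80 between Dll1 and Neurod1 and 0.79 between Neurog3 and Neurod1. These are descriptions over 8 arrays that share tissue and genotype, and genes that share low colon tumour values score high in this measure.

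**Figure D2:**
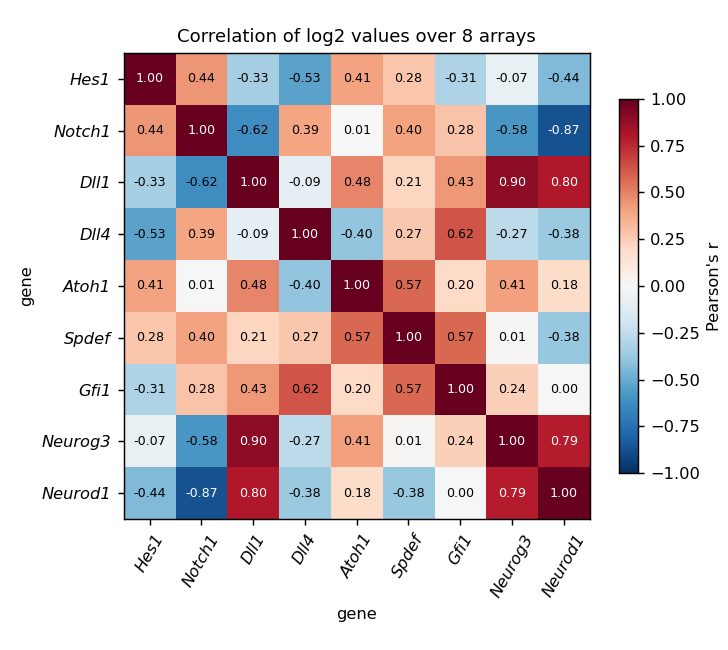
Pearson's r between the log2 signals of each 2 genes over the 8 arrays, with red for positive and blue for negative values. Dll1, Neurog3 and Neurod1 form a block between 0.79 and 0.90, and Notch1 and Neurod1 stand at -0.87.

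The 250 bases upstream of the start of Dll1, Neurog3 and Neurod1 are shown because these 3 genes had the most alike levels among the members, a choice made after their values were seen. They are RefSeq sequences of build GRCm38.p6, written 5' to 3' on the gene's strand, and capitals mark the E-box CANNTG, the letters that basic helix-loop-helix factors such as ATOH1, NEUROG3 and NEUROD1 bind. The Dll1 window lies at chr17:15376933-15377182 on the minus strand, the Neurog3 window at chr10:62132840-62133089 on the plus strand and the Neurod1 window at chr2:79456637-79456886 on the minus strand.
Dll1: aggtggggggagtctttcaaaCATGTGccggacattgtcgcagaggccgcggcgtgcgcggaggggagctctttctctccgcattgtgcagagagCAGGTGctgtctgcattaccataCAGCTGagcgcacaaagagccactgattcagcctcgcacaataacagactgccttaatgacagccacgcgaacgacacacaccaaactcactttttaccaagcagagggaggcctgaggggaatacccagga
Neurog3: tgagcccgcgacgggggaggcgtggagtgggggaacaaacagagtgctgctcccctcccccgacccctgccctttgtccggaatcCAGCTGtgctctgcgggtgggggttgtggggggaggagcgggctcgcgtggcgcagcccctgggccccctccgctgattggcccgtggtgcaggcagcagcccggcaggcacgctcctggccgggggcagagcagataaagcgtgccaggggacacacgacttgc
Neurod1: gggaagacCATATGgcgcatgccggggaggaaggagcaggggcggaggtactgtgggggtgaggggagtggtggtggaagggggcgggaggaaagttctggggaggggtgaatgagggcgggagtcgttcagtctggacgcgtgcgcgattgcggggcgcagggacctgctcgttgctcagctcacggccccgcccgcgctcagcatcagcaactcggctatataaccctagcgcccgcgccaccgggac
The Dll1 window held 3 E-boxes, of which 1 read CAGCTG, the Neurog3 window held 1 that read CAGCTG, and the Neurod1 window held 1. CANNTG reads the same on both strands and was present in 66.2% of 32851 promoter windows of 250 bases, while CAGCTG, which is one form of it, was present in 13.0%. The table of promoters held 8 of the 9 members in 10 windows, and Hes1 was not matched. The main windows of Atoh1, Notch1 and Dll4 held no CANNTG. The RBPJ core TGGGAA or its reverse complement was found in 1 of the 8 members, Spdef, against 21.6% of all windows. A match of letters is a description of the sequence and no evidence that a factor binds there.

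Within the colon, the question was which members differed between tumours and non-tumour tissue in that organ alone. Dll1 fell 2.13-fold, a log2 difference of -1.09 ± 0.28 (adjusted p = 0.0388), and Neurod1 fell 2.07-fold, a difference of -1.05 ± 0.22 (adjusted p = 0.0216), both lower in 2 of 2 pairs. That was 2 of 9 members lower and 0 higher, where 12.6% of all tested genes were called lower in colon tumours and 11.1% higher. The other 7 members had adjusted p-values from 0.0519 to 0.536. The lowest belonged to Dll4, the ligand of endothelium and of crypt cells, which was higher in both pairs and passed with no floor, quantile normalization or eBayes without trend, at adjusted p-values down to 0.0324.

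The Dll4 signal was 336 in ACKR2-/-ApcMin/+ and 260.16 in ApcMin/+ colon tumours, against 139 in ACKR2-/- and 176 in WT colon. The small intestinal signal was 205 in ACKR2-/-ApcMin/+ and 221 in ApcMin/+ tumours, against 249 in ACKR2-/- and 350.26 in WT tissue. Tumours were the higher group in colon and the lower group in small intestine, without overlap in either. The difference was 0.92 ± 0.26 in colon (adjusted p = 0.0519) and -0.47 ± 0.26 in small intestine (adjusted p = 0.377). Probe set 1421827_at ran the same way, with 0.52 ± 0.31 in colon and -0.66 ± 0.31 in small intestine. The summed signal of 8 endothelial markers was 1088 and 2109 in ACKR2-/-ApcMin/+ and ApcMin/+ colon tumours, against 1830 and 2550 in ACKR2-/- and WT colon, so it was lower in tumours in each colon pair.

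Hes1 ran the other way from Dll4. Its signal was 615 in ACKR2-/-ApcMin/+ and 1027 in ApcMin/+ colon tumours, against 1062 in ACKR2-/- and 1301 in WT colon. Small intestinal signals were 410.25 in ACKR2-/-ApcMin/+ and 842 in ApcMin/+ tumours, against 393 in ACKR2-/- and 453 in WT tissue. Tumours were lower in colon in both pairs and higher in small intestine in both pairs, although the ACKR2-deficient small intestinal pair differed by 0.06 alone and its tumours stood below WT tissue. The difference was -0.56 ± 0.19 in colon (adjusted p = 0.0781) and 0.48 ± 0.19 in small intestine (adjusted p = 0.229).

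The difference between the organs was tested as the colon tumour effect minus the small intestinal one. Hes1 gave -1.04 ± 0.26 (adjusted p = 0.114), Dll4 gave 1.39 ± 0.37 (adjusted p = 0.127) and Neurod1 gave -0.96 ± 0.31 (adjusted p = 0.178). No member passed by limma, where 2.15% of all genes did, and these 3 were the members with an unadjusted p under 0.05. The tumour effects of Dll1, -1.09 in colon and -0.71 in small intestine, differed by -0.38 ± 0.40 (adjusted p = 0.653).

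In small intestinal tumours 0 of 9 members were called by limma, against 3.9% of all tested genes (2.72% higher and 1.18% lower), and 2 members, Hes1 and Dll1, had an unadjusted p under 0.05. Dll1 gave -0.71 ± 0.28 (adjusted p = 0.234) and Atoh1 gave -0.79 ± 0.36 (adjusted p = 0.289). Calls over all genes in this organ were 382 higher and 165 lower, and 334 higher and 376 lower after centring on medians.

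**Figure D3:**
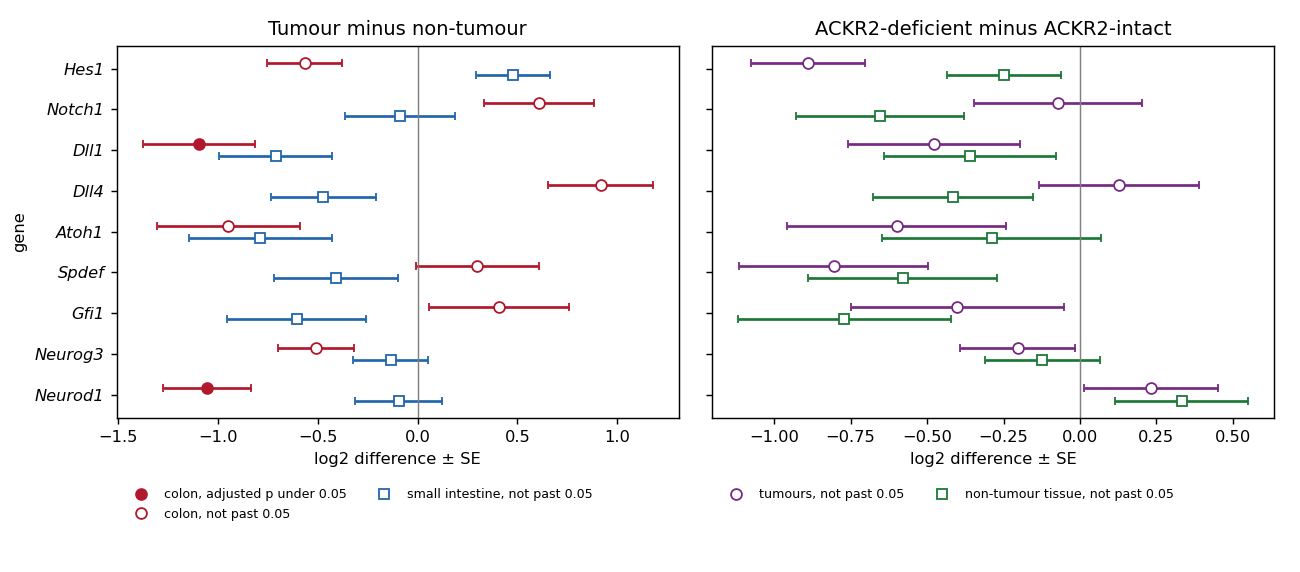
Log2 difference with its standard error (horizontal axis) for each gene. The left panel plots tumour minus non-tumour in colon (red circles) and small intestine (blue squares), and the right panel plots ACKR2-deficient minus ACKR2-intact arrays in tumours (purple circles) and non-tumour tissue (green squares). Filled symbols have an adjusted p under 0.05, which are Dll1 and Neurod1 in colon tumours.

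The remaining members showed no common direction in tumours. The receptor gene Notch1 read 955 in ACKR2-/-ApcMin/+ and 829.97 in ApcMin/+ colon tumours, against 403 in ACKR2-/- and 847 in WT colon. For small intestine the values were 408 in ACKR2-/-ApcMin/+ and 519.58 in ApcMin/+ tumours, against 449.76 in ACKR2-/- and 531 in WT tissue. The ACKR2-/- colon was the low value among the 4 colon arrays, and the others lay within 830 to 955. The averaged difference was 0.26 ± 0.20 (adjusted p = 0.366). Probe set 1418633_at of Notch1 was dimmer, at 208 in ACKR2-/-ApcMin/+ and 347 in ApcMin/+ colon tumours, against 134 in ACKR2-/- and 461 in WT colon. On small intestinal arrays it gave 166 in ACKR2-/-ApcMin/+ and 294 in ApcMin/+ tumours, against 36.7 in ACKR2-/- and 425 in WT tissue. In both organs its tumour values lay between those of ACKR2-/- and WT tissue. When every probe set was tested, its tumour difference was 0.11 ± 0.31 in colon (adjusted p = 0.848), where 1418634_at gave 0.61 ± 0.27 (adjusted p = 0.164). In small intestine the signs differed: 1418633_at gave 0.42 ± 0.31 (limma adjusted p = 0.524) and 1418634_at gave -0.09 ± 0.27 (limma adjusted p = 0.914). The 36.7 of 1418633_at in ACKR2-/- small intestine entered at the floor of 64.1, so 0.42 is a lower bound.

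The goblet factor Spdef read 371 in ACKR2-/-ApcMin/+ and 972 in ApcMin/+ colon tumours, against 386 in ACKR2-/- and 618 in WT colon. Across the small intestinal arrays it was 399.95 in ACKR2-/-ApcMin/+ and 467 in ApcMin/+ tumours, against 486 in ACKR2-/- and 678 in WT tissue. Colon tumours held both the highest and the lowest colon value, and small intestinal tumours lay below both non-tumour samples. The averaged difference was -0.05 ± 0.22 (adjusted p = 0.878).

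Gfi1 read 123 in ACKR2-/-ApcMin/+ and 159 in ApcMin/+ colon tumours, against 54.5 in ACKR2-/- and 173 in WT colon, with the ACKR2-/- value under the floor. Among small intestinal arrays the signal was 117 and 158 in ACKR2-/-ApcMin/+ and ApcMin/+ tumours, against 199 and 214 in ACKR2-/- and WT tissue. Tumours were the lower group in small intestine without overlap, and in colon they lay between the non-tumour samples. The averaged difference was -0.10 ± 0.25 (adjusted p = 0.801).

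The rest of the pathway was read from lists of ligands, processing enzymes, nuclear partners, targets and lineage factors that leave out the 9 members. Of 8 tested genes on the list of other Notch targets, 5 rose in tumours and 1 fell, where 13.1% of all tested genes rose and 11.9% fell. The risers were Hes6, which opposes HES1, at 1.35 ± 0.17, the repressor gene Hey1 at 1.10 ± 0.22, Myc at 1.05 ± 0.15, the cyclin gene Ccnd1 at 0.90 ± 0.13 and Cdca7 at 0.72 ± 0.12, each higher in 4 of 4 pairs with adjusted p between 0.00497 and 0.017. Nrarp, a feedback inhibitor that Notch induces, fell by 0.76 ± 0.13 (adjusted p = 0.0111). In 12 other settings Nrarp ran from -0.848 to -0.223 and Hey1 from 0.321 to 1.171, and each call was lost in 4. The Ccnd1 call was also lost in 4, and the Hes6, Myc and Cdca7 calls were each lost in 3. Myc and Ccnd1 are also textbook targets of Wnt signalling, and Hes6 opposes HES1, so the count is no measure of Notch output. The list's median was 0.81 against 0.03 over all genes. By organ, 5 were called higher and 1 lower in colon tumours, where 11.1% and 12.6% of all tested genes were. In small intestinal tumours 0 of 8 were called by limma, against 3.9% of all tested genes, and 5 had an unadjusted p under 0.05. There Hes6 gave 1.05 ± 0.23 (adjusted p = 0.0717) and Nrarp -0.77 ± 0.18 (adjusted p = 0.0815).

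Signals show the size of the contrast. Hes6 read 4209 and 2580 in ACKR2-/-ApcMin/+ and ApcMin/+ colon tumours, against 960 and 1152 in ACKR2-/- and WT colon. The small intestinal signal was 1593 and 1758 in ACKR2-/-ApcMin/+ and ApcMin/+ tumours, against 842 and 770.43 in ACKR2-/- and WT tissue. Nrarp read 651 and 796 in ACKR2-/-ApcMin/+ and ApcMin/+ colon tumours, against 1014 and 1459 in ACKR2-/- and WT colon. Neither gene's tumour and non-tumour signals overlapped within the colon.

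The next counts stand beside 13.1% of all tested genes called higher in tumours and 11.9% called lower. Of 7 other ligands and receptors tested, 0 rose and 1 fell, which is near the share of all genes. It was Dner, a neuronal ligand, at -1.02 ± 0.17 (limma adjusted p = 0.0108), with the ACKR2-/-ApcMin/+ colon tumours under the floor. Among 16 genes of ligand and receptor processing, 3 rose and 1 fell, also near the share of all genes. The sheddase genes Adam10 and Adam17 gave 0.54 ± 0.12 and 0.47 ± 0.13. The Adam10 call was lost in 5 of 12 other settings and the Adam17 call in 9 of 12, where Adam17 went down to 0.19. The ubiquitin ligase gene Neurl1a gave 1.10 ± 0.29, although the other probe set of Neurl1a gave -0.53. Neurl1b gave -1.07 ± 0.15. Among 14 genes of the nuclear complex and its regulators, 0 rose and 2 fell, again near the share of all genes. They were the deltex gene Dtx3 at -0.98 ± 0.17 and the acetyltransferase gene Kat2b at -0.49 ± 0.10.

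Of 20 tested genes on the list of other lineage factors, not all of them secretory, 5 rose and 3 fell, where 13.1% of all tested genes rose and 11.9% fell. Sox4 gave 2.12 ± 0.14, Sox9, a crypt and Paneth factor, 1.32 ± 0.14, and the stem cell factor Ascl2 1.12 ± 0.20. Zbtb7b gave -1.38 ± 0.11 and the goblet factor Klf4 -0.89 ± 0.22. The probe set used for Runx1t1 was at least as low as -0.80, since its 4 tumour signals lay under the floor. Over 11 other settings Runx1t1 ran from -1.336 to -0.167, and its call was lost in 4. Sox4 read 17166.8 and 13580.5 in ACKR2-/-ApcMin/+ and ApcMin/+ colon tumours, against 2301 and 2851 in ACKR2-/- and WT colon. Sox4, Sox9 and Zbtb7b also passed in small intestinal tumours alone, at 1.66 ± 0.19, 1.59 ± 0.19 and -0.94 ± 0.16, with Foxa1 at 1.05 ± 0.16. That was 3 of 20 higher and 1 lower, where 2.72% of all tested genes were called higher there and 1.18% lower. Over 12 other settings these calls were lost in 5 for Sox4, 5 for Sox9, 4 for Foxa1 and 7 for Zbtb7b. The Zbtb7b difference there went as far as -0.167.

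**Figure D4:**
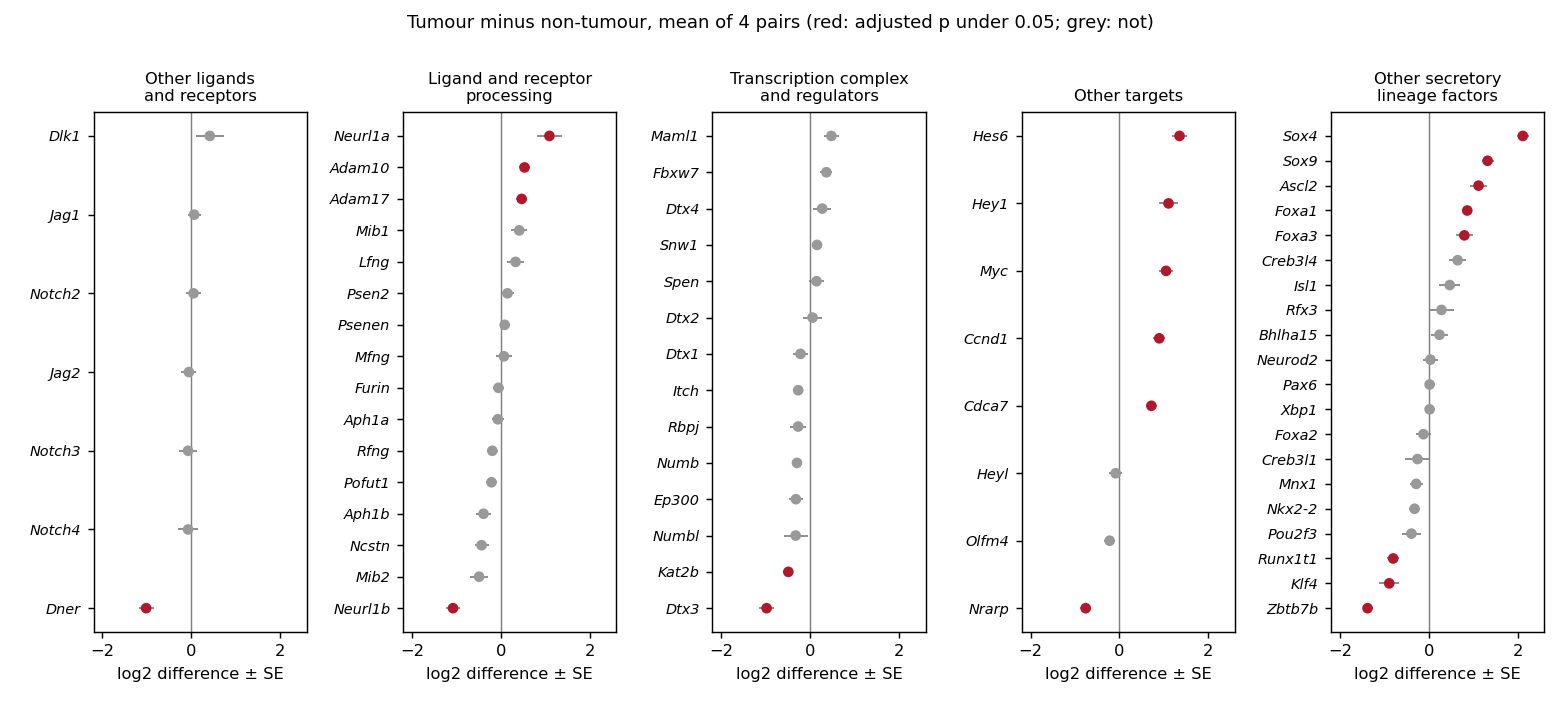
Log2 difference, tumour minus non-tumour, averaged over 4 pairs with its standard error, for the tested genes of 5 lists. Red points have an adjusted p under 0.05. Sox4 at 2.12 and Hes6 at 1.35 are among the genes higher in tumours, and Zbtb7b at -1.38 is among those lower.

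Products of the secretory cells divided by cell type. In the averaged effect 13.1% of all tested genes were called higher and 11.9% lower. The shares were 11.1% and 12.6% in colon tumours alone, and 2.72% and 1.18% in small intestinal tumours. Of 18 enteroendocrine products tested, 0 rose and 9 fell, among them the granule proteins Scg2 at -1.94 ± 0.21 and Chgb at -1.24 ± 0.25 and the peptide-processing enzyme Cpe at -1.93 ± 0.22. By organ, 1 was higher and 8 lower in colon tumours (median -0.75), and 0 of 18 were called by limma in small intestinal tumours (median -0.51, with 4 at an unadjusted p under 0.05), where Cpe gave -1.54 ± 0.31 (adjusted p = 0.0541). The colon effect minus the small intestinal one passed for 0 of 18 by limma, and 7 had an unadjusted p under 0.05. Some hormones among the 9 not called in the average were higher in tumours of some pairs. Nts read 161 and 140 in ACKR2-/-ApcMin/+ and ApcMin/+ colon tumours, against 34.4 and 25.8 in ACKR2-/- and WT colon, and was lower in both small intestinal pairs. Gip read 2116 and 748 in ACKR2-/-ApcMin/+ and ApcMin/+ small intestinal tumours, against 606 and 1263 in ACKR2-/- and WT tissue. Of 12 goblet products, 1 rose (Galnt3 at 0.89 ± 0.10) and 1 fell (Fcgbp at -0.88 ± 0.20). Paneth products were higher in colon tumours, where 5 of 6 passed (median 5.85), and in small intestinal tumours 1 passed, Pla2g2a at 1.78 ± 0.32, with a median of -0.26. The summed signal of the 6 was 63910 and 76030 in colon tumours against 7384 and 25940 in colon, and 97570 and 127100 in small intestinal tumours against 129200 and 138900 in small intestine. The 25940 was WT colon, and Ang4 alone read 19085.9 there. In ACKR2-/- colon Ang4 read 78.55, and in ACKR2-/-ApcMin/+ and ApcMin/+ colon tumours 13923 and 10216, both below WT colon. The colon effect minus the small intestinal one passed for 5 of 6, with a median of 5.25. The averaged effect also passed for 5 of 6, led by Pla2g2a at 3.86 ± 0.23, Reg3g at 3.68 or more and Mmp7 at 3.66 or more, and Reg3g and Mmp7 were higher in 2 of 4 pairs and lower in 2, the small intestinal ones. Those 2 averages are bounds because both genes lay under the floor in non-tumour colon. Mmp7 read 13429.3 and 9656 in ACKR2-/-ApcMin/+ and ApcMin/+ colon tumours, against 49.5 and 17.8 in ACKR2-/- and WT colon. Of 9 absorptive transcription factors, 1 rose (Prdm1 at 0.64) and 2 fell (Hnf4g at -1.06 and Cdx1 at -0.94).

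Markers of other cells moved with the tumours as well, where 13.1% of all tested genes were called higher in the average and 11.9% lower. The 8 smooth muscle markers all fell, and their summed signal was 3012 to 21730 in tumours against 36590 to 93830 in non-tumour tissue. Of 7 enteric neuron and glia markers 4 fell, with sums of 405 to 891 against 731 to 1720, and several enteroendocrine products, such as Scg2 and Chgb, are also made by neurons. Of 7 myeloid markers 4 rose, with sums of 3265 to 18860 against 2405 to 5810. All 5 B cell markers rose in the average, though 1 fell in colon tumours alone, with sums of 6879 to 10950 in small intestinal tumours against 369 to 1385 in small intestine. Of 6 T cell markers 1 rose, of 8 endothelial markers 2 fell, of 7 colon markers 6 fell, and of 7 small intestinal markers 2 fell. The 8 epithelial markers summed to 113800 to 166500 in tumours against 116200 to 166600 in non-tumour tissue, with 1 called higher. The part of these cell types in the members' differences was not tested.

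Between organs, Hes1 was the member that differed in non-tumour tissue. It was 2.78-fold higher in colon, a log2 difference of 1.48 ± 0.19 (adjusted p = 0.00445), with 1.43 in the ACKR2-deficient pair and 1.52 in the WT pair. That was 1 of 9 members higher and 0 lower, where 12.9% of all tested genes were called higher in colon and 8.38% lower. Since the WT small intestine array carried colon transcripts, the ACKR2-deficient pair alone, 1062 in colon against 393 in small intestine, is the value that does not rest on it. Of the 8 members not called, Dll4 had the lowest adjusted p, at -0.92 ± 0.26 (0.0555), followed by Dll1 at -0.84 ± 0.28 (0.0845) and Gfi1 at -0.97 ± 0.35 (0.102), all lower in colon in 2 of 2 pairs.

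In tumours, Dll1 and Neurod1 were lower in colon than in small intestine. Dll1 differed by -1.23 ± 0.28, 2.34-fold (adjusted p = 0.0404), and Neurod1 by -1.27 ± 0.22, 2.41-fold (adjusted p = 0.0167), each in 2 of 2 pairs. The second Neurod1 probe set gave -1.08 ± 0.23 (adjusted p = 0.0341). That was 2 of 9 members lower and 0 higher, where 7.35% of all tested genes were called lower in colon tumours and 5.75% higher. Notch1 stood 0.95 ± 0.28 higher in colon tumours (adjusted p = 0.0761), where its second probe set gave 0.28 ± 0.31 (adjusted p = 0.612), and Hes1 stood 0.43 ± 0.19 higher (adjusted p = 0.18).

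The other lists differed between organs in their own members, where 12.9% of all tested genes were called higher in non-tumour colon and 8.38% lower. Without tumours, Olfm4, a stem cell marker that Notch sustains, was lower in colon by at least 7.47 on the log2 scale. That is a bound because its colon signals of 2.1 and 4.53 entered at the floor. Ccnd1 was lower by 1.25 ± 0.18, so 0 of 8 genes on the Notch target list were higher and 2 lower. Of 20 genes on the lineage factor list, 6 were higher and 1 was lower. The higher genes were led by the endocrine factor Isl1 at 2.59 ± 0.34, with the WT small intestine under the floor, and Foxa2 at 2.55 ± 0.24. The lower gene was Bhlha15 at -2.03 ± 0.28. Of 6 Paneth products 5 were lower in colon, which has few or no Paneth cells. Of 18 enteroendocrine products 2 were higher and 5 lower, with Insl5, a colonic hormone, higher by at least 5.63 and Nts, an ileal hormone, at -6.20 or lower. Both are bounds, since Insl5 read 20.7 and 10.6 in ACKR2-/- and WT small intestine and Nts read 34.4 and 25.8 in ACKR2-/- and WT colon.

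Absence of ACKR2 gave no member call in tumours or in non-tumour tissue. In tumours 0 of 9 members passed by limma, where 0.0285% of all tested genes did, and 2 members, Hes1 and Spdef, had an unadjusted p under 0.05. In ACKR2-/-ApcMin/+ tumours Hes1 differed by -0.89 ± 0.19 from ApcMin/+ tumours (limma adjusted p = 0.165), with -0.74 in colon and -1.04 in small intestine. Spdef differed by -0.81 ± 0.31 (adjusted p = 0.296), with -1.39 in colon and -0.22 in small intestine. Atoh1 differed by -1.33 in colon and by 0.13 in small intestine, so its mean of -0.60 ± 0.36 (adjusted p = 0.454) rests on the colon tumours. Dll1 likewise differed by -0.94 in colon and by -0.01 in small intestine. The probe sets of Notch1 gave -0.78 ± 0.31 (1418633_at, adjusted p = 0.279) and -0.07 ± 0.27 (1418634_at, adjusted p = 0.937) in the test of every probe set.

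In non-tumour tissue 0 of 9 members passed by limma, where 0.57% of all tested genes did, and 0 had an unadjusted p under 0.05. The lowest adjusted p belonged to Notch1, at -0.66 ± 0.28 (0.211). Its second probe set, 1418633_at, read 134 in ACKR2-/- colon against 461 in WT colon. In small intestine it read 36.7 in ACKR2-/- against 425 in WT tissue, and the 36.7 entered at the floor. When every probe set was tested, its difference was -2.26 ± 0.31 (limma adjusted p = 0.0196). That test called 2147 of 25776 probe sets in this comparison, 441 higher and 1706 lower. Over the alternatives the adjusted p of Notch1 ran from 0.0196 to 0.831. The probe sets of Notch1 therefore disagreed on the call and agreed in sign. Gfi1 differed by -0.77 ± 0.35 (adjusted p = 0.239), with the ACKR2-/- colon value at the floor.

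The direction of these ACKR2 values depended on scaling, since ACKR2-deficient arrays had lower median signals. In non-tumour tissue 8 of 9 members lay below 0 as scaled by the authors, 6 of 9 after quantile normalization and 3 of 9 after centring on medians, where the all-gene median stood at 0.53 instead of -0.02. After centring, Hes1 stood at 0.30, Dll1 at 0.19, Atoh1 at 0.26, Dll4 at 0.13 and Neurog3 at 0.43 there, and Neurod1 at 0.88 against 0.33 before. In tumours 7 of 9 lay below 0 as scaled, 6 of 9 after quantile normalization and 5 of 9 after centring, and Hes1 stood at -0.79 and -0.60. The effect of ACKR2 in tumours minus that in non-tumour tissue passed for 0 of 9 members by limma, where 0.00713% of all genes did, and 0 had an unadjusted p under 0.05. Hes1 came nearest at -0.64 ± 0.26 (adjusted p = 0.623).

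For ACKR2, 0.57% of all tested genes passed in non-tumour tissue and 0.0285% in tumours. Over all the pathway lists together 1 gene passed, which for lists of this length is close to the non-tumour share. That gene was Furin, the protease that makes the first cut in Notch receptors, lower in ACKR2-/- non-tumour tissue by 1.42 ± 0.19 (limma adjusted p = 0.0487). It missed the threshold in 7 of 11 other settings and with each array left out, where the adjusted p reached 0.51. It read 510.39 in ACKR2-/- against 1199 in WT colon, and 483.5 in ACKR2-/- against 1477 in WT small intestine. The summed endothelial markers were 888 to 1830 on ACKR2-deficient arrays and 1994 to 2550 on ACKR2-intact arrays, and summed smooth muscle markers were 3012 and 4671 in ACKR2-/-ApcMin/+ tumours against 21730 and 13230 in ApcMin/+ tumours of colon and small intestine. Of the 8 smooth muscle markers all were lower in both tumour pairs and 1 passed, the filament gene Synm, at 35.5 and 82.1 in ACKR2-/-ApcMin/+ against 952 and 627 in ApcMin/+ tumours of colon and small intestine. Its difference was -3.41 ± 0.27 (adjusted p = 0.0469), with the first value entering at the floor, and it missed the threshold in 8 of 11 other settings and with each array left out. Whether these sums bear on the Hes1 and Spdef values was not tested.

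The genes with the most alike profiles were read over 8 arrays among 11039 candidates, as a description. Dll1 was most like Gucd1 (r = 0.995), Larp1b (0.993) and Zmiz1 (0.992). Neurod1 was most like Slc15a1 (0.989), which carries peptides into enterocytes, then Nr1h3 (0.975) and Il22ra1 (0.974). Hes1 was most like Nsmf (0.974), 2410022M11Rik (0.973) and Rap2a (0.969), and Atoh1 like Kcnma1 (0.968), Abcc3 (0.954) and Uqcrfs1 (0.948). Among the rest, the nearest gene was Pik3r4 for Notch1 (0.99), Recql5 for Neurog3 (0.971), Slc39a11 for Spdef (0.958), Slc49a4 for Dll4 (0.95) and Aars for Gfi1 (0.916). With 8 arrays and so many candidates, high values are common in this search.

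In GRCm38.p6 the members lie at chr16:30065357-30067796 (Hes1), chr2:26457902-26503822 (Notch1), chr17:15367354-15376932 (Dll1), chr2:119325784-119335666 (Dll4), chr6:64729125-64731245 (Atoh1), chr17:27714446-27731003 (Spdef), chr5:107716655-107725805 (Gfi1), chr10:62133090-62134763 (Neurog3) and chr2:79452637-79456636 (Neurod1). Their probe sets were 1418102_at for Hes1, 1418634_at for Notch1, 1419204_at for Dll1, 1421826_at for Dll4, 1449822_at for Atoh1, 1450220_a_at for Spdef, 1417679_at for Gfi1, 1432034_at for Neurog3 and 1426412_at for Neurod1.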

How the data were processed

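Total RNA of pooled mouse tissue was hybridised to 8 Affymetrix arrays of 45101 probe sets, 1 per group. The authors deposited MAS5 signals, a linear intensity, and per the submitters' processing notes used MAS5 and Partek, with no versions. From the values, each array's mean without its outer 2% was 500. Of the probe sets, 34945 had 1 gene, 932 had several and 9160 had none.

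Signals under the 40th percentile (64.1) were set to it and log2 transformed. The probe set with the highest mean stood for each gene, and genes above the floor in at least 2 arrays were tested with limma 3.58.1 in R 4.3.3 (trended eBayes, 2 residual degrees of freedom, 4.12 prior), two-sided, at an adjusted p under 0.05. The number of arrays limits precision. The script was tested on simulated data. The members and lists were chosen with earlier results of these data known. Named list genes were up to 3 called genes with the largest and the smallest difference per list and comparison, and per member the 3 genes with the highest r. Alternatives covered floor, filter, scaling, probe set choice, model and left-out arrays.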

Additional observations from a re-analysis of the deposited data

How the results depend on the processing

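No paired analysis was possible because each group is 1 array and the replicate number of 1 comes from accession order. With each array left out in turn, 0 members were called in all 9 comparisons (0 to 0), and over all genes the averaged tumour effect had 0 calls, while non-tumour tissue kept 39 to 62 calls between organs without 1 of 3 tumour arrays. Member calls for the averaged tumour effect were 2, and became 1 with the floor at the 25th or 60th percentile or the additive model, 0 with no filter on low values or without both WT or both ACKR2-/-ApcMin/+ arrays, and 3 with median centring, which added Atoh1. Neurod1 was the call lost at the 25th percentile and in the additive model, and with no floor Atoh1 passed and Neurod1 did not. In colon tumours 2 became 1 with the 60th percentile or the additive model 0 with no filter or without either set of arrays, and 3 with no floor, quantile normalization or eBayes without trend, which added Dll4. In small intestinal tumours 0 became 1 with the additive model. Between organs without tumours 1 became 2 with no floor, quantile normalization, median centring, the additive model or eBayes without trend, and 0 with no filter or without either set. Between organs in tumours 2 became 1 with the 60th percentile, 0 with no filter or without either set and 3 with median centring, which added Notch1, and the additive model called Hes1 (adjusted p = 0.0381) and not Neurod1. For ACKR2 without tumours 0 became 1 with median centring (Neurod1) or each probe set tested (Notch1). Over all genes median centring called 4697 of 14027 in that comparison, 4504 of them higher. The test of each probe set called 2147 of 25776, 1706 of them lower. With no filter, 102 genes were called higher and 88 lower for the averaged tumour effect, against 1840 and 1669, and the cause was not tested. The additive model, which by construction gives both organs 1 tumour effect, turned the small intestinal values of Hes1 to -0.044 and Dll4 to 0.22. The other probe set turned Neurl1a to -0.53. Atoh1 for ACKR2 in tumours ran from -1.33 to 0.13 over the left-out arrays, and was 0.13 without either colon tumour array, and Neurod1 in small intestinal tumours ran from -0.222 to 0.035. Bounds set by the floor moved with it, Olfm4 between organs from -11.85 to -5.89. Signals near the floor limit Neurog3, Neurod1 and Gfi1.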
